A study of Homo sapiens with 12 samples.

Results

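The 33 genes described here encode the enzymes and transporters of glycolysis and the genes that cells induce when oxygen is low. They were taken from a list of 36 genes, and each gene is represented by the brightest, on average, of the probe sets annotated to that gene alone; CA9, SLC16A1 and SLC16A3 have no such probe set here and were dropped. The remaining 33 genes are covered by 59 probe sets and stand among 11963 genes and 22215 probe sets measured on the arrays. RNA came from RKO cells, a poorly differentiated human colon carcinoma line, grown in supplemented Eagle's medium with added CO2, and the labels name no step that lowered oxygen. The groups were TQ+5-FU, with both drugs given together at the doses of the single treatments, TQ, with thymoquinone at 20 µM, 5-FU, with 5-fluorouracil at 10 µg/mL (76.8 µM), and control, each with 3 arrays and 24 h of treatment per the methods. Control cells are untreated in the labels and received the solvent DMSO in the methods, and the sources used here do not settle which holds for these arrays. Nothing in the labels says which arrays came from separate cultures, and p-values therefore measure only the spread between these arrays.

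Glycolysis splits glucose into pyruvate through a chain of cytosolic enzymes, and tumour cells often run it fast and send the pyruvate to lactate even with oxygen present. Hypoxia-inducible factors, dimers of an oxygen-labile alpha subunit (HIF1A or EPAS1, which encodes HIF-2 alpha) and the stable partner ARNT, raise the transcription of most of these enzymes and of genes for blood vessel growth, mitophagy and collagen folding. The alpha subunits are controlled mainly as proteins, by prolyl hydroxylases and the VHL ubiquitin ligase, so that their mRNA and their activity need not move together. Several of the genes also answer other regulators, among them p53 and MYC.

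Signals were log2 values that the authors had normalized with RMA (Robust Multi-array Average, which corrects, scales and summarises the probes of a probe set). A difference is the log2 signal of the first-named group minus that of the second, from limma fitted to all 12 arrays, with a Benjamini-Hochberg adjusted p over the 22215 probe sets, and rise and fall are written only of genes with such a p under 0.05. A pair of arrays stood apart from their replicates: 5-FU replicate 3 correlated with the other 5-FU arrays at a mean of 0.911 and TQ+5-FU replicate 2 with its own at 0.978, whereas all pairs of TQ arrays and of control arrays correlated at 0.996 or more. Both displaced arrays stayed in the fit, and the counts over all members are repeated with the pair left out, a setting chosen after the data were seen. The 24 spike-in probe sets for poly-A RNA averaged 9.47 on 5-FU replicate 3 and 8.94 on TQ+5-FU replicate 2, against 8.22 to 8.97 on the other arrays, and what this contributed to the results was not tested. The signals of epithelial markers were uneven, as KRT18 averaged 12.09 and EPCAM 9.04 in control cells, while CDH1 and KRT19 stood low at 3.72 and 3.60. The mean signal of 6 measured leukocyte markers lay between 4.40 and 4.75 on 11 arrays and at 5.12 on 5-FU replicate 3, that of 8 mesenchymal markers between 5.504 and 5.87 on 11 arrays and at 6.001 there, and none of these markers passed the test in any comparison with control. KRT18 rose by 0.49 (standard error 0.13, adjusted p = 0.04999) with 5-FU, the single epithelial marker of 6 to pass there (16.7%, where 7.29% of all genes passed).

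Most members were abundant. The mean signal over the 12 arrays exceeded 13 for 8 of the 33 genes (ALDOA, TPI1, GAPDH, PGK1, PGAM1, ENO1, LDHA and LDHB), close to the highest value of any probe set, 14.3, and fell into the dimmest 30% of probe sets for BNIP3 alone (3.33). GAPDH, the glyceraldehyde 3-phosphate dehydrogenase that the study also used as a reference gene in its RT-qPCR, had 14.22, 14.25 and 14.24 with TQ+5-FU, 14.23, 14.21 and 14.21 with TQ, 14.25, 14.26 and 14.29 with 5-FU and 14.27, 14.27 and 14.26 in control cells. Its difference from control lay between -0.051 with TQ and 0.0032 with 5-FU, with 95% intervals from -0.23 to 0.13 and from -0.18 to 0.19. Group means of GAPDH and of TPI1, triose phosphate isomerase, lay within 0.1 of each other, and those of 9 members within 0.25. Whether signals this near the top of the scale are compressed was not tested.

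Of the 33 members, 10 passed the test in at least 1 of 7 comparisons and 23 in none. With 5-FU against control, 6 rose and 4 fell, which is 30.3% of the members, where 7.29% of all genes passed (4.32% higher and 2.97% lower). With TQ+5-FU against control, 3 rose and 1 fell, 12.1% of the members, where 2.63% of all genes passed (1.78% higher and 0.853% lower). By the overall F test of any difference between the 4 groups 8 members passed, where 8.19% of all genes did. With the displaced arrays left out 22 passed, where 44.9% of all genes did. With TQ against control 0 passed in limma over all arrays, where 0.267% of all genes did (0.15% higher and 0.117% lower). At an unadjusted p under 0.05, 1 member was higher and 10 lower with TQ, where 403 of all 11963 genes were higher and 754 lower. At that unadjusted threshold, 760 of all genes were higher and 574 lower with TQ+5-FU, and 1304 higher and 1037 lower with 5-FU. Without the 2 displaced arrays, 6 were higher and 10 lower with TQ+5-FU, 4 higher and 13 lower with TQ, and 7 higher and 10 lower with 5-FU (48.5%, 51.5% and 51.5% of the members, where 22.7%, 32.4% and 28.3% of all genes passed). The median difference over the members was -0.096 with TQ+5-FU, -0.18 with TQ and -0.050 with 5-FU, and the median over all genes was 0.014 with TQ+5-FU, -0.090 with TQ and 0.091 with 5-FU. The 3 comparisons share the control arrays.

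**Figure D1:**
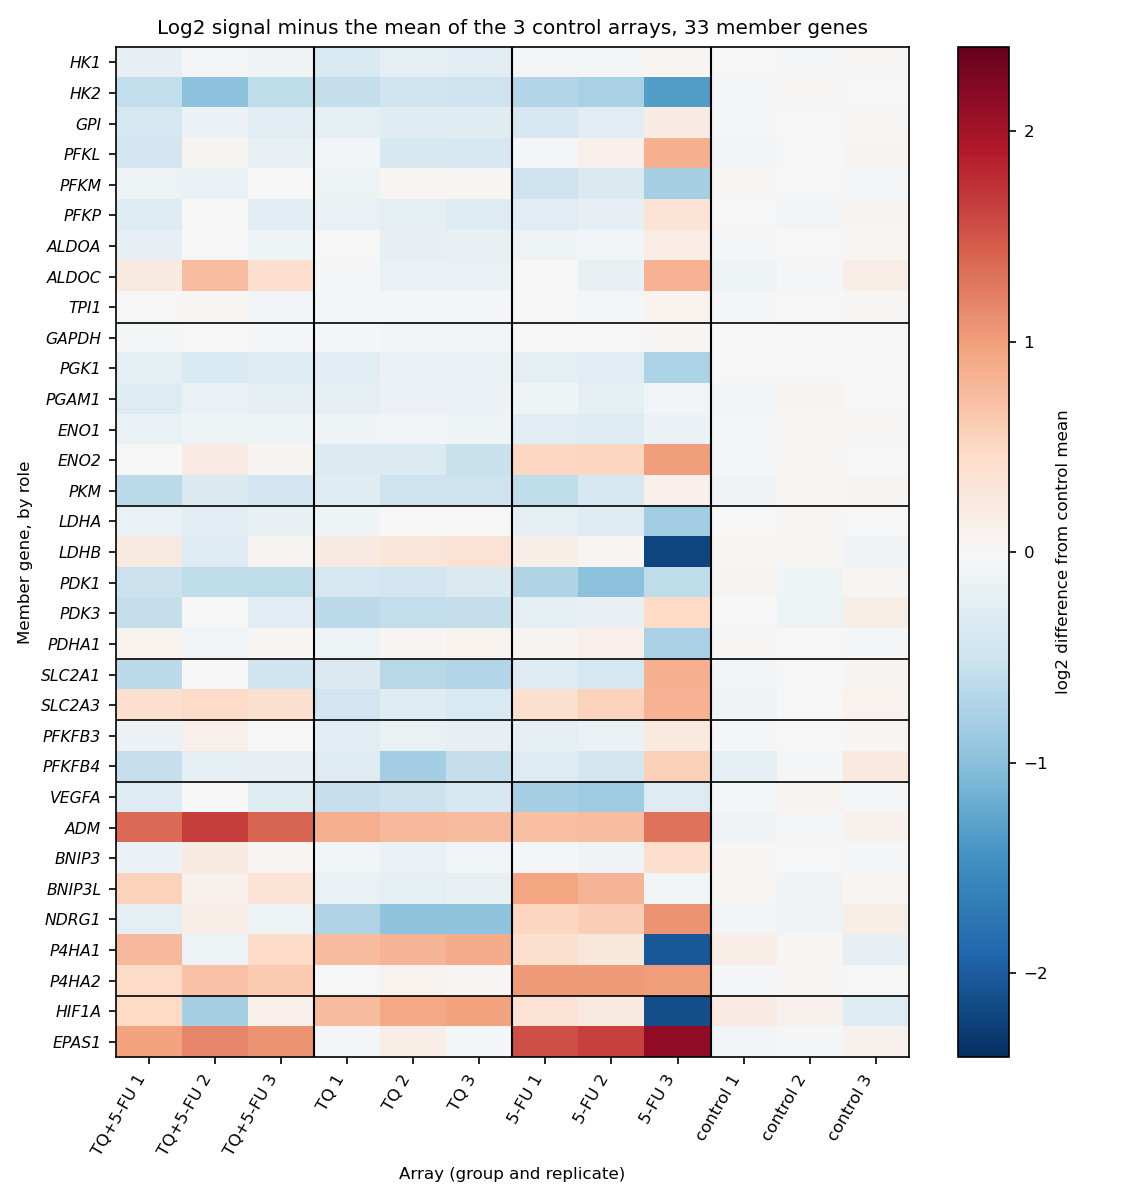
Log2 signal of each of the 33 member genes (rows, by role, upper glycolysis at the top and the HIF alpha subunits at the bottom) on each of the 12 arrays (columns) minus the mean of the 3 control arrays of that gene, red above and blue below. ADM is red in all 9 treated arrays and EPAS1 in all 6 arrays with 5-FU, and 5-FU replicate 3 holds the highest or the lowest signal of 26 of the 33 genes.

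The promoters of 5 members are shown because the hypoxia response element, the site that HIF dimers bind, has the core ACGTG or GCGTG, and these genes cover the different outcomes: ADM, ENO2 and EPAS1 rose with 5-FU, HK2 fell, and LDHA, a much-used model of a HIF target, did not pass. Each line gives the 250 bases before the annotated start, from RefSeq on GRCh38.p14, with every match to ACGTG or GCGTG on either strand in capitals; CACGTG, an E-box, counts as a match on both strands.
ADM: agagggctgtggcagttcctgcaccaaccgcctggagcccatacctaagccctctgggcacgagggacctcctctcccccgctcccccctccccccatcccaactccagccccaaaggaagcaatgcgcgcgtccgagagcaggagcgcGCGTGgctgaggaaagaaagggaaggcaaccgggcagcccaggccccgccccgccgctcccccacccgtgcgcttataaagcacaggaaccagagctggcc
ENO2: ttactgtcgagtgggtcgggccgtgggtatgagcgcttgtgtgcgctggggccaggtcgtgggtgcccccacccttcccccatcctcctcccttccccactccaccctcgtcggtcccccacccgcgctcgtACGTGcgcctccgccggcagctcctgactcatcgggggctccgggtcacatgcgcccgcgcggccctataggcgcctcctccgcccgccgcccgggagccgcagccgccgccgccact
EPAS1: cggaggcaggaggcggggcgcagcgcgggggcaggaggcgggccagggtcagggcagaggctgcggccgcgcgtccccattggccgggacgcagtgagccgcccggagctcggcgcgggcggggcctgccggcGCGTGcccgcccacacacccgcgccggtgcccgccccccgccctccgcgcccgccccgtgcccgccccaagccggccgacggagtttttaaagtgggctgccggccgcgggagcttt
HK2: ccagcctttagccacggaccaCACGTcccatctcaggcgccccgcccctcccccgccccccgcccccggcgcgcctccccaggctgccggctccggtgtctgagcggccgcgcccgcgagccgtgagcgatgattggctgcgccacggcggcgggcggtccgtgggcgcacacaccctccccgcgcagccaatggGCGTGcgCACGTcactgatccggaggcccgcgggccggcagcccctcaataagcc
LDHA: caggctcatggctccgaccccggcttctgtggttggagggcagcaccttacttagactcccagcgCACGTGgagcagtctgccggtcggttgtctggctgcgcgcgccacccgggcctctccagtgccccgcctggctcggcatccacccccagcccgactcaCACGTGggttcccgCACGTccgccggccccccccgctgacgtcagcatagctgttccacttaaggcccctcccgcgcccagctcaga
These windows are chr11:10304823-10305072, chr12:6914330-6914579, chr2:46297157-46297406, chr2:74833877-74834126 and chr11:18394313-18394562, all on the plus strand. ADM, ENO2 and EPAS1 held 1 match each, HK2 3 and LDHA 5, of which 4 lie in 2 E-boxes. The promoter table held 29 of the 33 members (all but SLC2A3, VEGFA, BNIP3L and NDRG1), and 19 of the 29, 65.5%, had a match within these 250 bases, where 43.1% of all 27305 promoters did. Those 27305 include genes not measured here, and the content of C and G was not matched between the sets. Of the 7 members in the table that passed with 5-FU, a match was present in 3 of 4 that rose and 1 of 3 that fell, and among the other 22 in 15. A match describes letters only, and no match (P4HA2, PFKM and PDK1) says nothing of sites elsewhere.

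Of the alpha subunits of the hypoxia-inducible factors, EPAS1 passed with 5-FU and with TQ+5-FU, and HIF1A passed in no comparison over all arrays. EPAS1 had 7.84, 8.06 and 7.96 with TQ+5-FU, 6.84, 7.05 and 6.84 with TQ, 8.43, 8.52 and 9.01 with 5-FU and 6.81, 6.85 and 6.99 in control cells. All arrays with 5-FU, alone or with TQ, lay above all arrays without it, and every 5-FU array lay above every TQ+5-FU array. The gene rose by 1.77 (standard error 0.16, adjusted p = 1.5e-04) with 5-FU and by 1.07 (standard error 0.16, adjusted p = 0.0054) with TQ+5-FU, more than any other member with 5-FU and more than any but ADM with TQ+5-FU, while with TQ the difference was 0.026 (standard error 0.16, adjusted p = 0.96). Its dimmer probe set, at a mean of 4.58, differed by 0.37 with 5-FU and 0.17 with TQ+5-FU and did not pass. HIF1A had 10.42, 9.14 and 10.07 with TQ+5-FU, 10.70, 10.86 and 10.90 with TQ, 10.29, 10.16 and 7.81 with 5-FU and 10.14, 10.04 and 9.63 in control cells. The TQ arrays lay above every other array, and the lowest signals were those of the 2 displaced arrays. Over all arrays the TQ difference of HIF1A was 0.88 (standard error 0.57, adjusted p = 0.69), with a 95% interval from -0.39 to 2.15; without the displaced arrays, neither of which is a TQ or control array, that difference passed (0.88, adjusted p = 0.0012), and the difference with 5-FU, -0.52 (standard error 0.57, adjusted p = 0.64) over all arrays, changed sign and did not pass (0.29, adjusted p = 0.21). In the further list of oxygen sensing genes and HIF partners, which holds VHL, ARNT and the prolyl hydroxylases EGLN1 and EGLN3, 0 of 12 measured genes passed in any comparison with control in limma over all arrays. Of all genes, 2.63% passed with TQ+5-FU, 0.267% with TQ and 7.29% with 5-FU. At an unadjusted p under 0.05, 1 of the 12 passed with TQ+5-FU, 2 with TQ and 2 with 5-FU. Results of this list without the displaced arrays, a fit in which 32.4% of all genes passed with TQ, are not given here.

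Among the hypoxia-responsive effectors, ADM and P4HA2 rose with 5-FU and with both drugs, NDRG1 rose with 5-FU alone, and VEGFA fell with 5-FU. ADM encodes adrenomedullin, a peptide hormone that widens vessels. Its signal was 11.59, 11.90 and 11.62 with TQ+5-FU, 11.11, 11.01 and 10.998 with TQ, 10.95, 10.98 and 11.53 with 5-FU and 10.15, 10.21 and 10.34 in control cells. Every treated array lay above every control array, and the TQ+5-FU arrays lay above all others. ADM rose by 1.47 (standard error 0.16, adjusted p = 0.0012) with TQ+5-FU, 2.77-fold, and by 0.92 (standard error 0.16, adjusted p = 0.007) with 5-FU, 1.89-fold; with TQ the difference of 0.80 (standard error 0.16, adjusted p = 0.083) missed the threshold, and it passed without the displaced arrays (0.80, adjusted p = 1.7e-04). P4HA2 encodes a catalytic subunit of the collagen prolyl 4-hydroxylase. It had 10.51, 10.76 and 10.68 with TQ+5-FU, 10.04, 10.12 and 10.07 with TQ, 11.06, 11.06 and 11.05 with 5-FU and 10.01, 10.07 and 10.05 in control cells. The 5-FU replicates, the displaced one included, were nearly equal, and the TQ+5-FU arrays lay between them and the control arrays without overlap. P4HA2 rose by 1.01 (standard error 0.096, adjusted p = 2.5e-04) with 5-FU and by 0.60 (standard error 0.096, adjusted p = 0.0089) with TQ+5-FU, and differed by 0.033 (standard error 0.096, adjusted p = 0.92) with TQ. Its relative P4HA1, another catalytic subunit, ranged from 8.29 to 9.18 with TQ+5-FU, from 9.16 to 9.30 with TQ, from 6.38 to 8.80 with 5-FU and from 8.21 to 8.58 in control cells, with the lowest value of each 5-FU-treated group on its displaced array, and it passed in no comparison over all arrays. Once the displaced arrays were left out it passed with TQ (0.82, adjusted p = 7.2e-04) and TQ+5-FU (0.62, adjusted p = 0.0055).

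NDRG1, a stress-responsive gene that hypoxia and p53 both induce, lay on opposite sides of control with the single drugs, and passed with 5-FU. Its signal was 10.20, 10.57 and 10.32 with TQ+5-FU, 9.70, 9.46 and 9.46 with TQ, 10.94, 11.01 and 11.49 with 5-FU and 10.35, 10.34 and 10.56 in control cells. The 5-FU arrays lay above all others and the TQ arrays below all others, while TQ+5-FU and control arrays overlapped. NDRG1 rose by 0.73 (standard error 0.17, adjusted p = 0.026) with 5-FU; the difference with TQ was -0.88 (standard error 0.17, adjusted p = 0.072), which passed without the displaced arrays (-0.88, adjusted p = 3.1e-04). Set directly against each other, TQ and 5-FU differed by -1.61 (standard error 0.17, adjusted p = 3.9e-04), with TQ the lower. With both drugs NDRG1 stood at -0.053 (standard error 0.17, adjusted p = 0.9999) from control, with a 95% interval from -0.42 to 0.32. VEGFA, the growth factor of blood vessels, had 10.19, 10.48 and 10.20 with TQ+5-FU, 9.93, 9.98 and 10.11 with TQ, 9.70, 9.63 and 10.19 with 5-FU and 10.46, 10.56 and 10.46 in control cells. All TQ and 5-FU arrays lay below all control arrays, and the TQ+5-FU arrays reached into the control range through the displaced replicate 2. VEGFA fell by 0.65 (standard error 0.15, adjusted p = 0.031) with 5-FU and its 3 other probe sets differed by -0.58 to -0.34 without passing. The difference was -0.20 (standard error 0.15, adjusted p = 0.9) with TQ+5-FU and -0.49 (standard error 0.15, adjusted p = 0.27) with TQ. Both passed as lower without the displaced arrays (TQ+5-FU -0.30, adjusted p = 0.026, and TQ -0.49, adjusted p = 0.0011). The other VEGFA probe sets did not all share that direction over all arrays. With TQ+5-FU, 2 of them averaged above control (8.62 against 8.23 and 7.62 against 7.39) and 1 below (8.78 against 8.91). With TQ these 3 averaged 8.13, 7.34 and 8.54, each below control. BNIP3 and BNIP3L, which encode receptors of mitophagy, passed in no comparison over all arrays. BNIP3 signals were among the dimmest, between 3.16 and 3.75. BNIP3L had 9.47, 9.33 and 8.45 with 5-FU and 8.55, 8.44 and 8.56 in control cells. Its difference with 5-FU was 0.57 (standard error 0.23, adjusted p = 0.22). That difference passed without the displaced arrays (0.88, adjusted p = 6.0e-05), as did the one with TQ+5-FU (0.43, adjusted p = 0.0074). The dimmer BNIP3L probe set, at a mean of 7.80, went the opposite way over all arrays. It averaged 7.34 with 5-FU and 7.65 with TQ+5-FU, below the 8.001 of control cells, and 8.21 with TQ, above it. Its values without the displaced arrays are not given here.

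**Figure D2:**
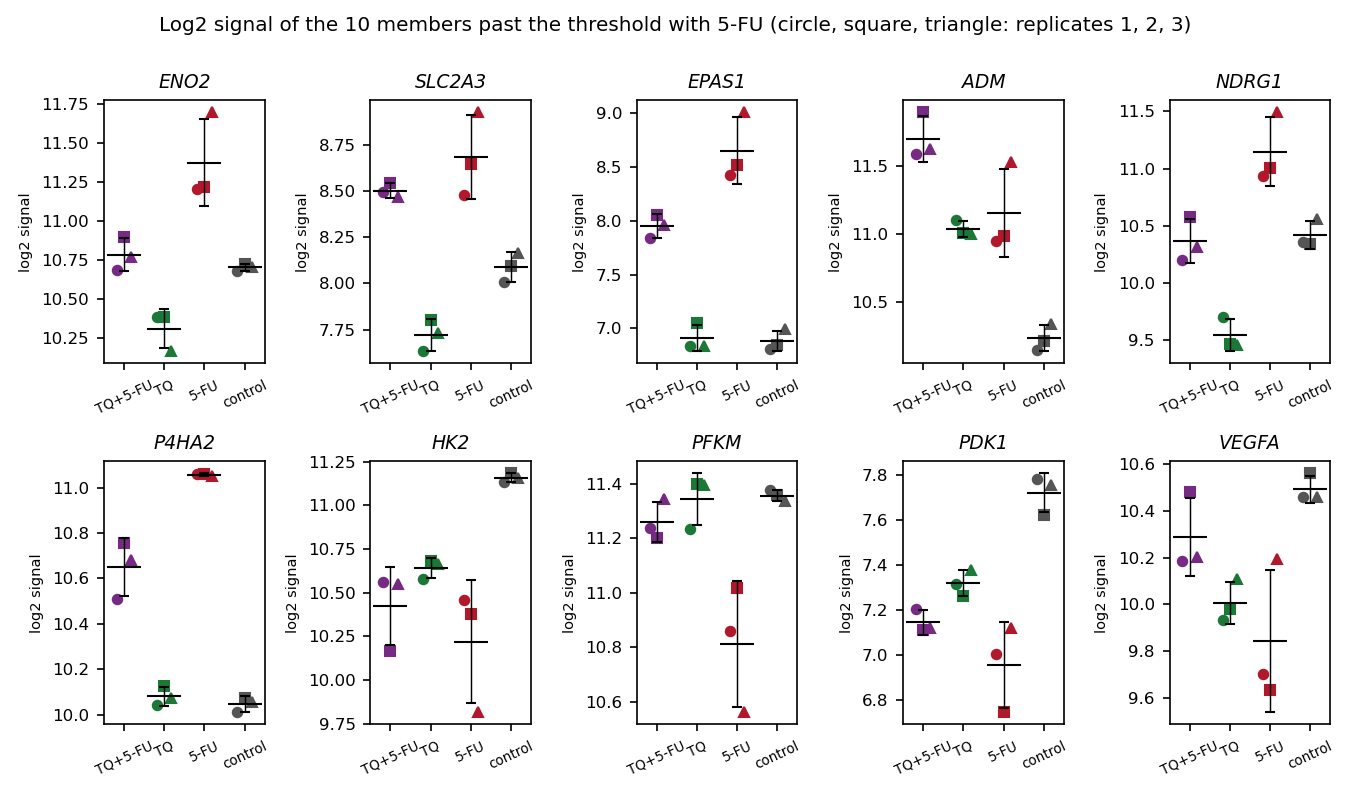
Log2 signal of the 10 member genes that passed with 5-FU against control, in TQ+5-FU, TQ, 5-FU and control cells; each symbol is an array, the wide line the mean of 3 arrays and the bar 1 SD. EPAS1, P4HA2 and SLC2A3 are high in both groups that received 5-FU, NDRG1 and ENO2 are highest with 5-FU and lowest with TQ, and HK2 and PDK1 are lower than control in every treated array.

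In upper glycolysis, from glucose trapping to the triose phosphates, 2 of 9 genes were lower with 5-FU (22.2%, where 7.29% of all genes passed). With TQ+5-FU and TQ 0 passed, where 2.63% and 0.267% of all genes did. HK2, the inducible hexokinase of tumour cells, had 10.56, 10.17 and 10.55 with TQ+5-FU, 10.58, 10.68 and 10.67 with TQ, 10.46, 10.38 and 9.81 with 5-FU and 11.13, 11.18 and 11.16 in control cells. Every treated array lay below every control array. HK2 fell by 0.94 (standard error 0.17, adjusted p = 0.0089) with 5-FU, while differences of -0.73 (standard error 0.17, adjusted p = 0.057) with TQ+5-FU and -0.52 (standard error 0.17, adjusted p = 0.31) with TQ missed the threshold and passed without the displaced arrays (-0.60, adjusted p = 4.2e-04 and -0.52, adjusted p = 6.5e-04). A dimmer HK2 probe set, at a mean of 6.80, differed by 0.09 with 5-FU and did not pass. HK1, the constitutive hexokinase, differed by -0.017 (standard error 0.094, adjusted p = 0.93) with 5-FU. PFKM, the muscle isoform of phosphofructokinase, which commits sugar to glycolysis, had 11.24, 11.20 and 11.34 with TQ+5-FU, 11.23, 11.40 and 11.40 with TQ, 10.86, 11.02 and 10.56 with 5-FU and 11.38, 11.36 and 11.34 in control cells. The 5-FU arrays lay below all others. PFKM fell by 0.55 (standard error 0.13, adjusted p = 0.027) with 5-FU and was higher with TQ than with 5-FU by 0.53 (standard error 0.13, adjusted p = 0.026). The other isoforms, PFKL and PFKP, differed by 0.31 and -0.05 with 5-FU and did not pass, and both had their highest signal on 5-FU replicate 3. The isomerases GPI and TPI1 and the aldolases ALDOA and ALDOC passed in no comparison over all arrays. Their differences from control ranged from -0.28 to 0.45 over the 3 treatments. GPI passed as lower without the displaced arrays with TQ+5-FU (-0.35, adjusted p = 0.012), TQ (-0.26, adjusted p = 0.022) and 5-FU (-0.33, adjusted p = 0.014). In the same fit PFKP passed as lower with TQ+5-FU (-0.28, adjusted p = 0.038) and TQ (-0.24, adjusted p = 0.035). HK1 passed there as lower with TQ (-0.29, adjusted p = 0.01) and with TQ against 5-FU (-0.24, adjusted p = 0.04). ALDOC passed there as higher with TQ+5-FU than with TQ (0.43, adjusted p = 0.029).

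In lower glycolysis, from GAPDH to pyruvate kinase, ENO2 was the single gene of 6 that passed over all arrays at the probe sets used. With 5-FU against control this was 16.7% of the list, where 7.29% of all genes passed. ENO2 encodes the neuronal enolase, an isoenzyme of the abundant ENO1. ENO2 had 10.69, 10.90 and 10.77 with TQ+5-FU, 10.38, 10.38 and 10.16 with TQ, 11.21, 11.22 and 11.70 with 5-FU and 10.68, 10.72 and 10.71 in control cells. The 5-FU arrays lay above and the TQ arrays below all others, and the TQ+5-FU arrays lay around the controls. ENO2 rose by 0.67 (standard error 0.14, adjusted p = 0.018) with 5-FU and was lower with TQ than with 5-FU by 1.07 (standard error 0.14, adjusted p = 0.0016), whereas the differences from control were 0.082 (standard error 0.14, adjusted p = 0.9999) with TQ+5-FU and -0.39 (standard error 0.14, adjusted p = 0.37) with TQ. ENO1, PGK1 and PGAM1 had differences with 5-FU of -0.24, -0.42 and -0.14, none of which passed over all arrays. PGK1 (-0.26, adjusted p = 0.039) and PGAM1 (-0.26, adjusted p = 0.048) passed as lower with TQ+5-FU once the displaced arrays were left out. ENO1 (-0.29, adjusted p = 0.014) and PGK1 (-0.25, adjusted p = 0.04) then passed as lower with 5-FU. PKM, pyruvate kinase, differed by -0.30 (standard error 0.17, adjusted p = 0.41) with 5-FU at its brighter probe set, and the dimmer one (mean 7.77) fell by 0.93 with 5-FU (standard error 0.11, adjusted p = 0.0010) and by 0.67 with TQ+5-FU (standard error 0.11, adjusted p = 0.014). The brighter PKM probe set passed without the displaced arrays as lower with TQ+5-FU (-0.55, adjusted p = 0.0039), TQ (-0.43, adjusted p = 0.0058) and 5-FU (-0.51, adjusted p = 0.0041). ENO2 then passed as lower with TQ (-0.39, adjusted p = 0.004).

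Of the genes that decide the fate of pyruvate, PDK1 fell with 5-FU and with both drugs. It encodes a kinase that switches off pyruvate dehydrogenase. PDK1 had 7.21, 7.11 and 7.12 with TQ+5-FU, 7.32, 7.26 and 7.38 with TQ, 7.002, 6.74 and 7.12 with 5-FU and 7.78, 7.62 and 7.76 in control cells. Every treated array lay below every control array. PDK1 fell by 0.77 (standard error 0.12, adjusted p = 0.003) with 5-FU and by 0.58 (standard error 0.12, adjusted p = 0.028) with TQ+5-FU, and differed by -0.40 (standard error 0.12, adjusted p = 0.22) with TQ, which passed without the displaced arrays (-0.40, adjusted p = 0.0061). LDHA and LDHB encode the subunits of lactate dehydrogenase. LDHA ranged from 13.15 to 13.28 with TQ+5-FU, from 13.32 to 13.44 with TQ, from 12.60 to 13.22 with 5-FU and from 13.41 to 13.46 in control cells, and its difference with 5-FU was -0.45 (standard error 0.15, adjusted p = 0.12). That difference passed as lower without the displaced arrays (-0.26, adjusted p = 0.031). LDHB spanned 11.27 to 13.62 within 5-FU, where replicate 3 was the lowest of all arrays, and its difference was -0.67 (standard error 0.49, adjusted p = 0.51), which changed sign without the displaced arrays (0.097, adjusted p = 0.51). LDHB then passed as higher with TQ (0.28, adjusted p = 0.022). PDK3, another of these kinases, and PDHA1, a subunit of the dehydrogenase, passed in no comparison over all arrays at the probe sets used. PDK3 passed without the displaced arrays as lower with TQ+5-FU (-0.42, adjusted p = 0.018), with TQ (-0.60, adjusted p = 0.0015) and with TQ against 5-FU (-0.39, adjusted p = 0.019). The comparison of TQ with 5-FU was also past the threshold over all arrays at 1 of the 2 remaining PDK3 probe sets. In the further list of the pyruvate dehydrogenase complex and its regulators, 2 of 9 genes rose with 5-FU (22.2%, where 7.29% of all genes passed). Both were subunits of the mitochondrial pyruvate carrier: MPC2 rose by 0.95 (standard error 0.14, adjusted p = 0.003) and MPC1 by 0.55 (standard error 0.13, adjusted p = 0.026). MPC2 also rose with TQ+5-FU, by 0.71 (standard error 0.14, adjusted p = 0.03), as the single gene of this list (11.1%, where 2.63% of all genes passed). With TQ against 5-FU, 3 of the 9 genes were lower and 0 higher (33.3%, where 11.1% of all genes passed). Among these was PDK2, lower with TQ by 1.07 (standard error 0.28, adjusted p = 0.037).

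Of the transporters, SLC2A3, a glucose transporter of high affinity, had 8.50, 8.55 and 8.47 with TQ+5-FU, 7.63, 7.80 and 7.73 with TQ, 8.48, 8.65 and 8.93 with 5-FU and 8.01, 8.09 and 8.17 in control cells. The TQ arrays lay below the control arrays, and all arrays with 5-FU lay above them. SLC2A3 rose by 0.60 (standard error 0.12, adjusted p = 0.017) with 5-FU, was higher with TQ+5-FU than with TQ by 0.78 (standard error 0.12, adjusted p = 0.018) and lower with TQ than with 5-FU by 0.97 (standard error 0.12, adjusted p = 0.0013); the differences from control were 0.41 (standard error 0.12, adjusted p = 0.14) with TQ+5-FU and -0.37 (standard error 0.12, adjusted p = 0.31) with TQ. It passed without the displaced arrays as higher with TQ+5-FU (0.39, adjusted p = 0.011) and as lower with TQ (-0.37, adjusted p = 0.0063). These values come from a probe set of a class that can bind related transcripts, here possibly those of the near-identical SLC2A14, and its 2 other probe sets differed by -0.14 and 0.12 with 5-FU, without passing. SLC2A1, the basal glucose transporter, had 8.03, 7.92 and 9.19 with 5-FU and 8.28, 8.34 and 8.42 in control cells, with the displaced replicate 3 above and the others below the controls, and its difference was 0.035 (standard error 0.30, adjusted p = 0.96). The sign of that difference turned without the displaced arrays, and SLC2A1 passed as lower with 5-FU (-0.37, adjusted p = 0.036). It also did so with TQ+5-FU (-0.55, adjusted p = 0.0067) and TQ (-0.58, adjusted p = 0.0023). PFKFB3 and PFKFB4, which set the level of fructose 2,6-bisphosphate, the activator of phosphofructokinase, passed in no comparison over all arrays, and their differences from control lay between -0.57 and -0.0019. PFKFB4 passed as lower with TQ without the displaced arrays (-0.57, adjusted p = 0.017) and with the groups compared only (adjusted p = 0.020).

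**Figure D3:**
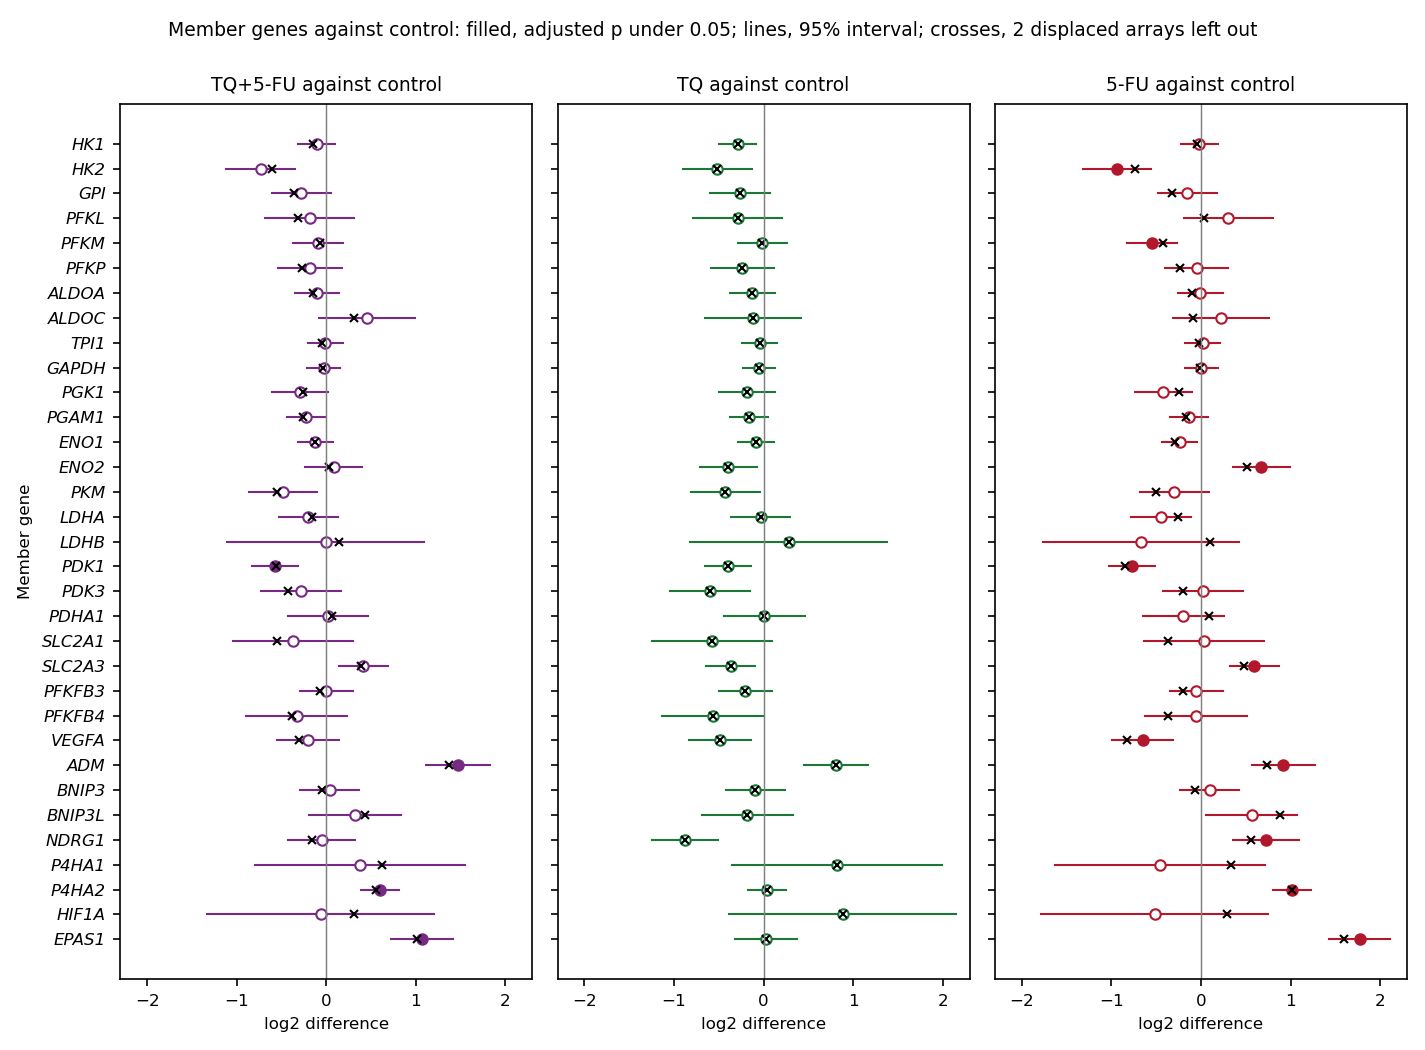
Log2 difference of each of the 33 member genes from control with TQ+5-FU, TQ and 5-FU; circles are the limma estimates over all 12 arrays (filled where the adjusted p was under 0.05), lines their 95% intervals, and crosses the differences with the 2 displaced arrays left out. The intervals of HIF1A, P4HA1 and LDHB span more than 2 units in every panel, those of GAPDH and TPI1 about 0.4, and the crosses of P4HA2 and EPAS1 stay within 0.2 of the circles.

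Comparisons among the treated groups asked what each drug added to the other. With TQ+5-FU against TQ, 3 of 33 members rose and 0 fell, where 1.15% of all genes passed (1.05% higher and 0.1% lower): SLC2A3 (above), EPAS1 by 1.04 (standard error 0.16, adjusted p = 0.016) and P4HA2 by 0.57 (standard error 0.096, adjusted p = 0.023). EPAS1 passed in 7, SLC2A3 in 6 and P4HA2 in 4 of 12 fits that left out 1 array, and 0 members passed without TQ+5-FU replicate 2 or 3 or without any 1 TQ array; without both displaced arrays 8 were higher and 1 lower (27.3% of the members, where 12.7% of all genes passed). With TQ+5-FU against 5-FU, 0 members passed in limma over all arrays, where 0.802% of all genes did (0.435% higher and 0.368% lower). At an unadjusted p under 0.05, 3 members were higher and 4 lower in that comparison, where 568 of all 11963 genes were higher and 655 lower. The differences there were -0.78 (standard error 0.17, adjusted p = 0.073) for NDRG1, -0.70 (standard error 0.16, adjusted p = 0.082) for EPAS1, -0.41 (standard error 0.096, adjusted p = 0.1) for P4HA2 and 0.55 (standard error 0.16, adjusted p = 0.21) for ADM. Without the displaced arrays, 2 members (VEGFA and ADM) were higher and 5 (ENO2, BNIP3L, NDRG1, P4HA2 and EPAS1) lower with TQ+5-FU than with 5-FU, 21.2% of the members where 6.91% of all genes passed. With TQ against 5-FU, PFKM was higher and ENO2, SLC2A3, NDRG1, P4HA2 and EPAS1 were lower, 18.2% of the members where 11.1% of all genes passed (3.29% higher and 7.78% lower); EPAS1 differed by -1.75 (standard error 0.16, adjusted p = 1.4e-04) and P4HA2 by -0.98 (standard error 0.096, adjusted p = 2.6e-04). With arrays centred on their median, PFKM no longer passed in this comparison (adjusted p = 0.0501). There 6 members were lower and 0 higher with TQ than with 5-FU, where 9.25% of all genes passed. Without the displaced arrays 5 were higher and 8 lower with TQ than with 5-FU (39.4% of the members, where 30.9% of all genes passed).

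The interaction, TQ+5-FU minus TQ minus 5-FU plus control, measures how far the response to both drugs departed from the sum of the single responses. In limma over all arrays 0 members passed, where 0.167% of all genes did (0.125% positive and 0.0418% negative). At an unadjusted p under 0.05 there were 4 members with a positive and 2 with a negative value, where 539 and 215 of all 11963 genes had one. The value was positive for 26 of 33 members and for 6079 of all 11963 genes, with a median of 0.17 over the members beside 0.0044 over all genes. VEGFA had the smallest p, with 0.93 (standard error 0.22, adjusted p = 0.2) and a 95% interval from 0.45 to 1.42. PDK1 had 0.59 (standard error 0.16, adjusted p = 0.32), HK2 0.72 (standard error 0.24, adjusted p = 0.51) and PFKM 0.46 (standard error 0.18, adjusted p = 0.64), and the negative values were those of EPAS1, -0.73 (standard error 0.22, adjusted p = 0.41), and P4HA2, -0.44 (standard error 0.14, adjusted p = 0.42). Without the displaced arrays 6 members passed, VEGFA (1.01, adjusted p = 0.0018), PDK1 and HK2 with a positive value and EPAS1 (-0.60, adjusted p = 0.025), HIF1A and P4HA2 with a negative one, 18.2% of the members where 11.1% of all genes passed.

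The 10 calls with 5-FU differed in how much they rested on single arrays. HK2, PDK1, ADM, P4HA2 and EPAS1 passed in each of 12 fits that left out 1 array, PFKM in 8, ENO2 and NDRG1 in 9, SLC2A3 in 10 and VEGFA in 3, and the count of members that passed lay between 5 (without control replicate 1 or 2) and 13 (without 5-FU replicate 3). For TQ+5-FU against control ADM and EPAS1 passed in all 12 such fits, P4HA2 in 10 (not without control replicate 1 or 2) and PDK1 in 3, with counts from 2 (without control replicate 1 or 2) to 8 (without 5-FU replicate 3). For TQ against control the count was 11 without 5-FU replicate 3, an array outside the contrast that enters through the shared spread, and 0 without any other single array. The share of all genes that passed was not computed for the fits that left out 1 array. Without both displaced arrays, 32.4% of all genes passed with TQ, so these counts are no result about the members. Fitted on the groups compared only, 16 members passed with TQ against control (4 higher and 12 lower, where 30.9% of all genes passed), led by ADM (adjusted p = 5.2e-04), NDRG1 (adjusted p = 6.9e-04) and P4HA1 (adjusted p = 9.3e-04), whereas 2 passed with 5-FU against control (EPAS1 and P4HA2, where 0.861% of all genes passed) and 5 with TQ+5-FU against control (3 higher and 2 lower, where 4.15% of all genes passed).

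**Figure D4:**
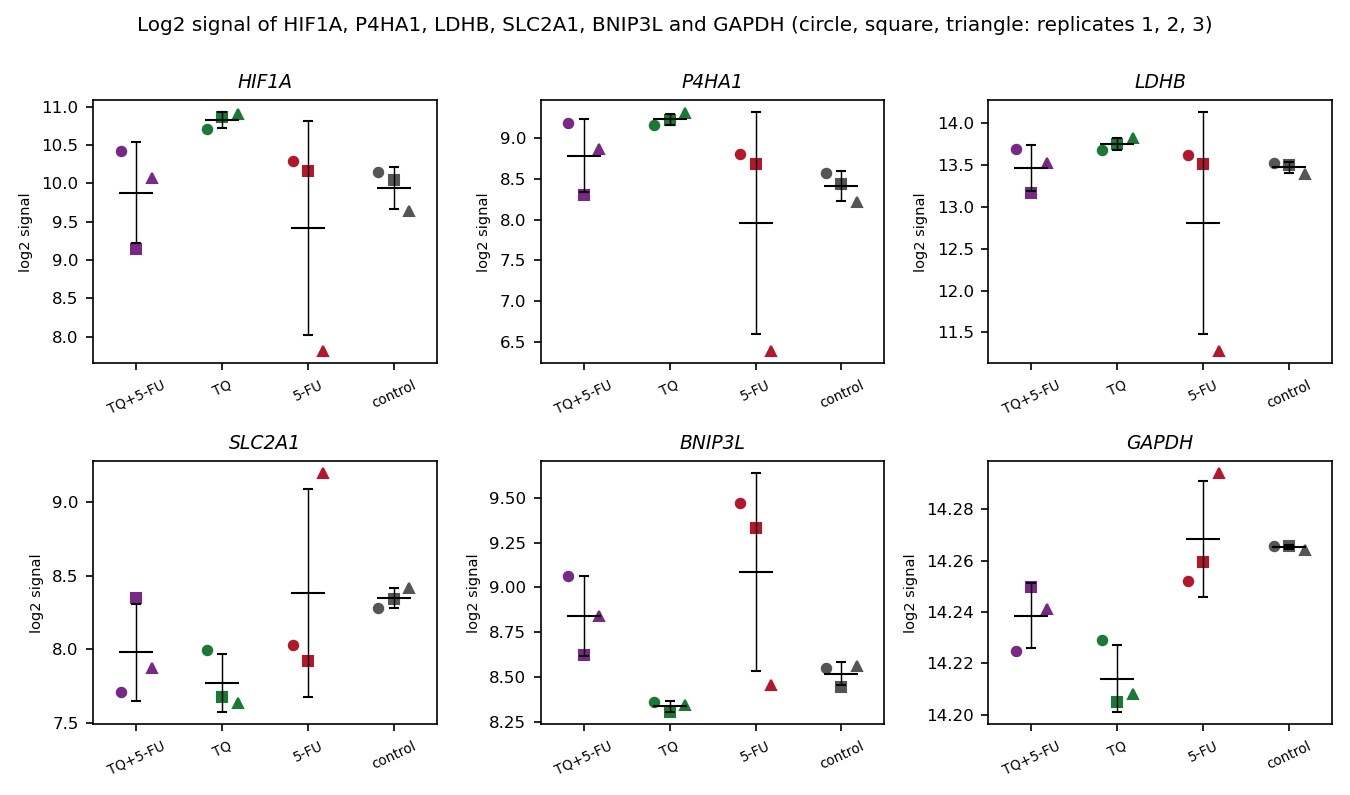
Log2 signal of HIF1A, P4HA1, LDHB, SLC2A1, BNIP3L and GAPDH in TQ+5-FU, TQ, 5-FU and control cells, with each array as a symbol, the mean of 3 arrays as a wide line and 1 SD as a bar; each panel has its own axis. Relative to the average of 5-FU replicates 1 and 2, replicate 3 differs by -2.42 for HIF1A, -2.36 for P4HA1, -2.29 for LDHB and 1.22 for SLC2A1, while all 12 GAPDH signals lie between 14.21 and 14.29.

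The displaced arrays carried a shared pattern, which was not particular to the members. 5-FU replicate 3 held the highest of the 12 signals for 18 members and the lowest for 8, and it exceeded the average of replicates 1 and 2 by more than 0.5 for 12 members and fell short of that average by more than 0.5 for 8. The differences ran from -2.42 for HIF1A to 1.22 for SLC2A1. TQ+5-FU replicate 2 deviated from its own replicates in the same direction as 5-FU replicate 3 for 31 of 33 members, by -1.10 for HIF1A and 0.55 for SLC2A1. Over all probe sets, the deviations of these 2 arrays from their group means correlated at 0.88. On 5-FU replicate 3 the median over all genes of the difference from the control mean was 0.37. The median signal of that array over the probe sets, 6.33, was the lowest of the 12. Counts like those of the members were not made over all genes. The 3′ minus 5′ signal of the GAPDH control probe sets, a measure of RNA breakdown, was 0.06 on 5-FU replicate 3 and 0.13 on TQ+5-FU replicate 2, against 0.05 to 0.09 on the other arrays. That of the ACTB control probe sets was 0.957 on TQ+5-FU replicate 1, which was not among the displaced arrays, 0.886 on TQ+5-FU replicate 2 and 0.557 on 5-FU replicate 3, against 0.573 to 0.729 on the other arrays.

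Further genes that hypoxia induces were kept as a separate list. Of 24 measured genes, 1 rose and 2 fell with 5-FU (12.5%, where 7.29% of all genes passed). With TQ+5-FU 0 passed, where 2.63% of all genes did, and with TQ 1 fell (4.17%, where 0.267% of all genes passed). The medians were -0.0027 with TQ+5-FU, -0.049 with TQ and -0.35 with 5-FU. Counts of this list without the displaced arrays are not given here. DDIT4, an inhibitor of mTORC1, had 9.23, 8.84 and 8.74 with TQ and 10.64, 10.67 and 10.69 in control cells, and fell by 1.73 (standard error 0.24, adjusted p = 0.027) with TQ, and it also passed without the displaced arrays (-1.73, adjusted p = 3.3e-05). CA12, a carbonic anhydrase at the cell surface, fell by 0.78 (standard error 0.16, adjusted p = 0.015) and AK4, a mitochondrial adenylate kinase, by 0.55 (standard error 0.11, adjusted p = 0.01) with 5-FU, and BHLHE40, a transcriptional repressor, rose by 0.41 (standard error 0.11, adjusted p = 0.04968). NFIL3, a transcription factor, was higher with TQ+5-FU than with 5-FU by 0.86 (standard error 0.11, adjusted p = 0.0064). It was the single gene of the list to pass there (4.17%, where 0.802% of all genes passed). With TQ against 5-FU, 4 genes of the list were higher and 2 lower (25%, where 11.1% of all genes passed). TFRC, the transferrin receptor, was higher with TQ than with 5-FU by 2.86 (standard error 0.54, adjusted p = 0.01), where its 5-FU signals were 9.72, 9.53 and 7.52, the lowest on the displaced array, without which the difference was smaller (2.16, adjusted p = 6.5e-06). Of 7 pentose phosphate genes, RPIA, ribose 5-phosphate isomerase, fell by 0.67 (standard error 0.15, adjusted p = 0.026) with 5-FU. It was the single gene of that list to pass with 5-FU (14.3%, where 7.29% of all genes passed). Of 12 other glycolytic isoenzymes and transporters, 0 passed in any comparison with control in limma over all arrays. Of all genes, 2.63% passed with TQ+5-FU, 0.267% with TQ and 7.29% with 5-FU. At an unadjusted p under 0.05, 0 of the 12 passed with TQ+5-FU, 1 with TQ and 1 with 5-FU.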

How the data were processed

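Total RNA of 12 RKO samples was labelled with biotin and hybridised to Affymetrix Human Genome U133A 2.0 arrays. The values were deposited by the authors as log2 signals of 22277 probe sets, normalized across arrays with RMA. The methods name GeneSpring GX for this step and the submitters' processing notes Affymetrix Expression Console. No depth applies to arrays, and 3 arrays per group limit the precision. The 62 probe sets for controls entered no test. In the platform annotation 19064 of the other probe sets name 1 gene, 1043 several and 2108 none, and symbols were updated through Entrez IDs to the RefSeq table of GRCh38.p14, which also gave the promoters.

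A model with a mean for each group was fitted to all 12 arrays with limma 3.58.1 (R 4.3.3), with moderated two-sided tests and Benjamini-Hochberg adjustment over 22215 probe sets. Each gene was represented by its brightest probe set on average. Per-array values are given for each member that passed in any comparison and for GAPDH, HIF1A and VEGFA. From the further lists some genes that passed are named, at most 4 of a list per comparison. The members and lists were chosen with earlier results of these data known. The alternatives were other scalings, a filter on dim probe sets, array weights, a replicate block, the groups compared only, the methods' tests, the mean of a gene's probe sets and leaving out each array. Leaving out both displaced arrays was chosen after the data were seen. The scripts were tested on simulated data. Figures were drawn with matplotlib 3.10.9 in Python 3.11.15.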

Additional observations from a re-analysis of the deposited data

How the results depend on the processing

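No difference of a member called over all arrays changed sign under any alternative run, and over the calls of single members 379 alternative values passed and 104 did not. Array weights ran from 0.025 on 5-FU replicate 3 to 9.48 on TQ+5-FU replicate 3. The other TQ+5-FU arrays had 0.52 and 0.15, so that with weights this group rested mostly on its replicate 3. With array weights, estimated gene by gene because the default estimate did not converge, 22 members passed with TQ against control (50.7% of all genes did), 21 with 5-FU (38.5%), 20 with TQ+5-FU (44.5%), 13 with TQ+5-FU against 5-FU (21.8%), 19 with TQ+5-FU against TQ (46.6%), 18 with TQ against 5-FU (42.6%), 18 for the interaction (38.3%) and 28 for any difference between the 4 groups (70.2%). With both displaced arrays left out, these counts were 17, 17, 16, 7, 9, 13, 6 and 22, where 32.4%, 28.3%, 22.7%, 6.91%, 12.7%, 30.9%, 11.1% and 44.9% of all genes passed. With the groups compared only, 16 passed with TQ (30.9% of all genes), 2 with 5-FU (0.861%) and 3 with TQ against 5-FU (1.03%). With the methods' ANOVA and Tukey's HSD as run here, 5 passed with TQ (3.06% of all genes), 6 with TQ+5-FU against 5-FU (3.88%) and 7 with TQ+5-FU against TQ (4.66%). The paper reports a larger share of its transcripts as different with TQ by these tests, so its counts were not reproduced. The methods' t-test after Benjamini-Hochberg gave 15 with TQ (17.5%), 1 with 5-FU (1.41%), 0 with TQ+5-FU against TQ (0.234%) and 1 with TQ against 5-FU (0.518%). With arrays centred on their median, 6 passed with 5-FU (3 higher and 3 lower, 5.25% of all genes) and 1 with TQ+5-FU against TQ (0.635%). The cause was not tested in these cases.

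Leaving out 1 array at a time gave 0 to 11 members with TQ, 5 to 13 with 5-FU, 2 to 8 with TQ+5-FU, 0 to 6 with TQ+5-FU against 5-FU, 0 to 9 with TQ+5-FU against TQ, 5 to 9 with TQ against 5-FU, 0 to 2 for the interaction and 6 to 14 for any difference. With the replicate number as a block, 7 members passed with 5-FU, 4 with TQ+5-FU, 2 with TQ+5-FU against TQ, 5 with TQ against 5-FU and 0 in the others. Of 18 same-numbered pairs of arrays, 6 had deviations that correlated above 0.1 (lowest -0.84, highest 0.86), and of 36 other pairs 19 did. The 2 displaced arrays, which differ in number, correlated at 0.88, so these values cannot decide whether the numbers pair the arrays. The numbers were not taken to pair them. The share of all genes that passed was not computed for the fits without 1 array or with the block, so these counts are no result about the members. The interaction could not be fitted with the groups compared only or with the methods' pairwise tests. The 3 arrays per group limit what could be detected.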
